A study of Mus musculus with 4 samples.

Results

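Proliferating cells were sought among helper T cells sorted from the wall of the mouse small intestine, through the messenger RNAs of 3 genes. Members were chosen by measured values: a cell barcode was gated as cycling when at least 2 of the genes Mki67, Top2a and Birc5 had at least 1 unique molecular identifier (UMI, the tag that marks 1 captured RNA molecule). This gate took 580 of the 19960 barcodes kept from recipients 1, 2 and 4 (at least 500 genes detected and at most 10% mitochondrial UMIs). It took 232 of 9301 barcodes in recipient 1, 308 of 9244 in recipient 2 and 40 of 1415 in recipient 4. These are shares of 2.49%, 3.33% and 2.83%, with a mean of 2.88% ± 0.42 (SD, n = 3 recipients) and exact Clopper-Pearson 95% intervals of 2.19% to 2.83%, 2.98% to 3.72% and 2.03% to 3.83% that cover counting error only. Gated barcodes were deeper than others, and when each barcode was first thinned to 3000 UMIs the gate took 1.17%, 1.89% and 1.397%, a mean of 1.49%. The other 19380 barcodes served as the comparison, and all 4 recipients together held 23586 kept barcodes.

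The cells came from mixed bone marrow chimeras. The hosts were irradiated Rag1-/- mice, a strain that lacks mature T and B lymphocytes. Each had received 10000000 bone marrow cells, of which 50% were wild type (WT) and carried CD45.1 and 50% were Bcl3-/- and carried CD45.2, and the gut was taken after 16 weeks. CD45.1 and CD45.2 are variants of the CD45 surface protein, read here with barcoded antibodies, and Bcl3 encodes an atypical IkB protein that binds NF-kB subunits in the nucleus. Each recipient gave 1 library of lamina propria cells sorted as CD45+CD3+CD4+7AAD-, so both donors' cells shared the host, the irradiation and the library, and no group of unmixed chimeras entered. No source used here gives the age of the mice.

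A cell that leaves rest passes through S phase, in which the DNA is copied and histones are made to package it, and then through G2 into mitosis, in which the spindle separates the chromosomes. Top2a encodes the topoisomerase that untangles DNA strands, Mki67 the Ki-67 protein that coats mitotic chromosomes, Birc5 the survivin subunit of the chromosomal passenger complex, and Stmn1 the microtubule regulator stathmin. Many genes of G2 and mitosis are held silent in resting cells by the DREAM complex, which binds the CHR element of their promoters, while NF-Y binds the CCAAT boxes found beside it. In the gut wall, CD4 T cells are mostly effector and regulatory cells. Th17 cells make Il17a, regulatory T cells carry the factor Foxp3, Th1 and cytotoxic cells make Ccl5, and follicular helper cells carry the receptor Cxcr5.

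The promoters of the 3 gate genes are shown because the whole selection rests on these transcripts. Each stretch is the 250 bases before the RefSeq gene start on build GRCm38.p6, on the gene's own strand, at chr7:135716380-135716629 (minus strand) for Mki67, chr11:99024190-99024439 (minus strand) for Top2a and chr11:117848987-117849236 (plus strand) for Birc5. Capitals mark the CHR letters TTTGAA, the related letters TTCGAA and the CCAAT box, each read on both strands (TTCAAA and ATTGG are the reverse complements).
Mki67: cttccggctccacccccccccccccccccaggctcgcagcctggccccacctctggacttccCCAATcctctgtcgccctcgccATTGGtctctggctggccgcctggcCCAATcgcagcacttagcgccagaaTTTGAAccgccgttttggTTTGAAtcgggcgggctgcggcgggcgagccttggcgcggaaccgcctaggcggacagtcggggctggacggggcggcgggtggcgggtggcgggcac
Top2a: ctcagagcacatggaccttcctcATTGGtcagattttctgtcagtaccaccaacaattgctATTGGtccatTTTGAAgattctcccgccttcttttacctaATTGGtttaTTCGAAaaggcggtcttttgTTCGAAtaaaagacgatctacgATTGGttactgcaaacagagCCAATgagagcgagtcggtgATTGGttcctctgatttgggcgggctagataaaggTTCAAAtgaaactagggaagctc
Birc5: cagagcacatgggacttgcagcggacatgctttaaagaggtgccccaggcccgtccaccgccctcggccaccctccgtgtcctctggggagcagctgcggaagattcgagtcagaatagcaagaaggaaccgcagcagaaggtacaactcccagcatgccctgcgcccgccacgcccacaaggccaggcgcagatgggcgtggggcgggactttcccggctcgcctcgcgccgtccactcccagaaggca

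Mki67 held the CHR letters 116 and 98 bases before its start and 3 CCAAT boxes. Top2a held them 179 and 23 bases before its start, the related letters at 140 and 120 bases, and 6 CCAAT boxes. The Birc5 stretch held none of these letters. Over all 32851 RefSeq promoter stretches of this length (27025 genes), 16.0% held the CHR letters, 1.34% the related letters and 33.8% a CCAAT box. Among promoters of a list of 51 genes of G2 and mitosis (46 stretches, 42 genes matched), the shares were 30.4%, 4.35% and 78.3%. Among promoters of a list of 44 genes of S phase (37 stretches, 32 genes matched), they were 13.5%, 2.70% and 59.5%. These are matches of letters, not measured binding.

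Recipient 3 was left out because its other barcodes carried Birc5 and Stmn1 transcripts widely: 13.4% of them had a Birc5 UMI and 46.1% a Stmn1 UMI, against 0.0727% to 0.436% and 3.78% to 5.60% in the 3 recipients used. Top2a was met in 14.1% of them against 7.94% to 9.88%, and Mki67 in 7.87% against 7.36% to 8.29%. The libraries held 60347749, 59190104 and 8642411 UMIs in recipients 1, 2 and 4, and any pair of libraries shared at most 33 barcode sequences. The gated barcodes were deeper than the others, with median UMI counts of 10245, 11105.5 and 7006 against 5897, 5727 and 5804. Barcodes above 3 times their library's median made up 12.9%, 14.9% and 12.5% of the gated and 0.673%, 0.481% and 0.218% of the other barcodes. Doublets were not removed, and the part of depth and doublets in the gate was not tested. All 580 gated barcodes held a UMI of a T cell gene, and Cd4 was seen in 90.5%, 93.8% and 85.0% of them.

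Proliferation transcripts were abundant in nearly all barcodes with all 3 gate genes and in a minority of those with exactly 2. Of the 580 gated barcodes, 355 had Mki67 and Top2a without Birc5, 26 had Mki67 and Birc5, 10 had Top2a and Birc5, and 189 had all 3 genes. The 95 genes of the S phase list and the G2 and mitosis list, none of them a gate gene, were then summed after each barcode had been thinned to 3000 UMIs. In barcodes with all 3 gate genes, called 3-gene barcodes below, the median was 64.5, 64.5 and 67 list UMIs in recipients 1, 2 and 4. In barcodes with exactly 2 gate genes, it was 7, 8 and 6.5. Barcodes with 1 gate gene, just outside the gate, had 6 in each recipient, and barcodes with none had 5, 5 and 6. The 3-gene barcodes thus lay far above all other sets, whereas the middle values of the 2-gene barcodes lay within 3 UMIs of those outside the gate.

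The same was seen in the share of barcodes above the 99th percentile of those without any gate gene (15, 15 and 14.4 list UMIs). Of the 3-gene barcodes, 182 of 185 lay above it (98.4%), compared with 88 of 385 2-gene barcodes (22.9%), 81 of 3184 with 1 gene (2.54%) and 115 of 14565 with none (0.790%). Within the 2-gene barcodes, 24 of 36 with Birc5 lay above it (66.7%), and 64 of 349 with Mki67 and Top2a (18.3%). Stmn1, the fourth marker, had a UMI in 90.0%, 94.1% and 85.7% of the 3-gene, 16.9%, 21.4% and 9.38% of the 2-gene, 3.19%, 3.60% and 2.78% of the 1-gene and 2.35%, 2.81% and 1.56% of the no-gene barcodes at this depth. The label of cycling T cells therefore described the 3-gene barcodes and a minority of the 2-gene barcodes, most of which lay at or below the cutoff. Both sets are called by their number of gate genes in what follows. These values are a description, since they move with the gate.

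**Figure D1:**
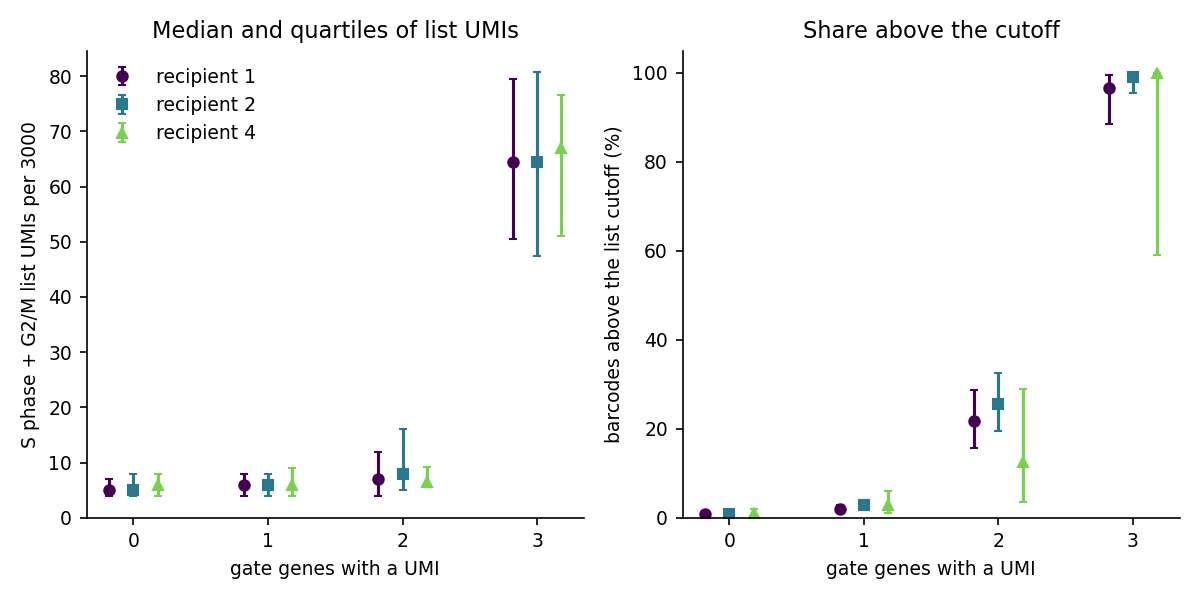
UMIs of the S phase and G2/M lists by the number of gate genes with a UMI, in barcodes thinned to 3000 UMIs, by recipient. Left: medians with quartiles, in UMIs. Right: percent of barcodes above the 99th percentile of the barcodes without a gate gene, with 95% Clopper-Pearson intervals. The 3-gene medians lie at 64.5 to 67 UMIs, against 6.5 to 8 for 2 genes.

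The levels of the proliferation genes followed the same step. In CPM (the UMIs of a gene relative to all UMIs of the set, with no further scaling), Stmn1 stood at 1806, 1758 and 1700.3 in the 3-gene barcodes of recipients 1, 2 and 4, at 195, 237 and 221 in the 2-gene barcodes, at 19.6, 22.6 and 8.98 with 1 gene and at 9.81, 10.7 and 7.85 with none. Pclaf, which encodes a partner of the replication clamp PCNA, stood at 877, 872 and 1068 in 3-gene and 97.6, 94.0 and 148 in 2-gene barcodes, against 1.55, 1.67 and 2.83 in those without a gate gene. For both genes, the order 3, 2, 1, 0 held in recipients 1 and 2, and in recipient 4 with the exception that Pclaf was lower with 1 gene (1.93) than with none. The linker histone gene Hist1h1b stood at 4786, 3496 and 2965 in 3-gene barcodes and at 23.6, 50.7 and 40.6 in 2-gene barcodes, a wider gap. The motility receptor gene Hmmr, whose protein sits on the spindle, stood at 303, 290.2 and 238 and 7.27, 20.8 and 22.1. In each of these genes, no recipient's 2-gene value reached any recipient's 3-gene value.

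The gated barcodes covered S phase as well as G2 and mitosis. Of the 570 with at least 3000 UMIs, 226 had more S phase than G2/M list UMIs (97 of 226, 118 of 305 and 11 of 39 in recipients 1, 2 and 4), 303 had more G2/M UMIs and 41 had equal numbers. For 192 of them the lists differed by at most 2 UMIs, so that these calls rest on little. The lists differ in length, with 44 and 51 genes. Barcodes without a gate gene already held a median of 2 S phase and 3 G2/M UMIs in each recipient. Of the 570, 270 lay above the list cutoff, so the counts are not phases of cycling cells throughout. Barcodes with few UMIs of both lists crowded near the origin, and the rest spread in a band rich in S phase UMIs and another rich in G2/M UMIs. The 3-gene barcodes held a median of 18.5, 22 and 28 S phase and 43.5, 38.5 and 50 G2/M UMIs, more of the later phase, to which Birc5 itself belongs. The 2-gene barcodes held 3, 3 and 2.5 S phase and 4, 5 and 4 G2/M UMIs.

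**Figure D2:**
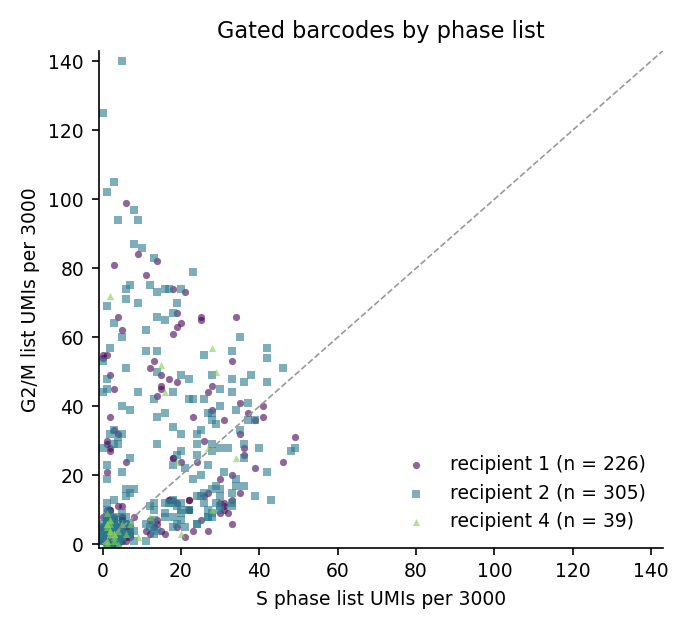
S phase list UMIs (x axis) against G2/M list UMIs (y axis) in each of the 570 gated barcodes thinned to 3000 UMIs; each point is a barcode, its shape the recipient, and the dashed line marks equal numbers. Of these barcodes, 226 lie below the line and 303 above it.

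The helper class of the gated barcodes did not differ from that of the others in the same direction in all 3 recipients for Foxp3, Il17a or Ccl5. A class was read from a marker at the thinned depth of 3000 UMIs: at least 1 UMI of Foxp3 or Cxcr5, or at least 3 of Il17a or Ccl5. The Il17a class was the most frequent named class in recipients 1 and 2, with 98 of 226 and 111 of 305 gated barcodes (43.4% and 36.4%) against 29.3% and 24.4% of the others. In recipient 4 it was 2 of 39 (5.13%) against 9.76%. The log2 odds ratio of the class, gated against other, was 0.89, 0.83 and -0.70, with a mean of 0.34 ± 0.90 (SD, n = 3), and an exact two-sided sign-flip permutation test over the 3 recipients gave p = 0.5. Without recipient 4 the mean was 0.86. Gated and other shares did not overlap within counting error in recipients 1 and 2, and recipient 4, with 39 barcodes, gave the opposite sign.

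The Foxp3 class held 17 of 226, 33 of 305 and 10 of 39 gated barcodes, or 7.52%, 10.8% and 25.6%, against 13.0%, 14.8% and 16.8% of the others. It was lower among gated barcodes in recipients 1 and 2 and higher in recipient 4 (mean log2 odds ratio -0.18 ± 0.88 SD, exact permutation p = 0.75, n = 3; 0.16 without recipient 1). The Ccl5 class held 15, 24 and 4 barcodes, or 6.64%, 7.87% and 10.3%, against 11.6%, 13.0% and 6.45%, with the same split between recipients (-0.25 ± 0.97 SD, exact permutation p = 1, n = 3; 0.042 without recipient 1 and 0.016 without recipient 2). The Cxcr5 class held 6, 5 and 0 barcodes, or 2.65%, 1.64% and 0% (0 of 39 allows up to 9.03%), against 3.50%, 2.60% and 3.74%, lower in each recipient (-0.83 ± 0.71 SD, exact permutation p = 0.25, n = 3). None of the 4 markers was met in 42.5%, 46.9% and 61.5% of gated and 46.3%, 49.7% and 65.5% of other barcodes (-0.22 ± 0.05 SD, exact permutation p = 0.25, n = 3). With 3 recipients p cannot fall below 0.25, and after Benjamini-Hochberg adjustment over the 5 exact tests the values ran from 0.625 to 1.

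Shares in naive-like barcodes and at full depth were set beside these. Barcodes with all 3 of the naive genes Ccr7, Lef1 and S1pr1, called naive-like, numbered 414, 197 and 21. Their median was 7021.5, 7104 and 7122 UMIs before thinning. Among them the Foxp3 class held 3.89%, 3.11% and 14.3% and the Il17a class 4.38%, 5.70% and 0%. The Ccl5 class held 2.19%, 3.11% and 0%, and the Cxcr5 class 2.68%, 5.18% and 0%. The Cxcr5 shares of gated barcodes were at or below the naive-like shares in each recipient. Those of the other barcodes were below the naive-like share in recipient 2 and above it in recipients 1 and 4. Whether naive-like barcodes lack cells of the 4 classes was not tested, so they do not set a background. These naive-like barcodes themselves passed the cycling gate in 5 of 414, 14 of 197 and 0 of 21 cases (1.21%, 7.11% and 0%). At full depth, where gated barcodes have more UMIs to show a marker, the gated and other shares were 16.8%, 24.0% and 25.0% against 17.6%, 19.7% and 22.3% for Foxp3, 49.1%, 43.5% and 10.0% against 30.2%, 27.3% and 10.6% for Il17a, 12.5%, 22.4% and 12.5% against 15.1%, 17.4% and 7.85% for Ccl5, and 11.6%, 6.82% and 12.5% against 6.56%, 5.02% and 6.47% for Cxcr5. The mean log2 odds ratio then turned positive for Foxp3 (0.19), Ccl5 (0.34) and Cxcr5 (0.86), so that the direction of these classes depends on depth.

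Among the 3-gene barcodes alone, the Il17a class held 23 of 60, 40 of 118 and 0 of 7 (38.3%, 33.9% and 0%), and the Foxp3 class 2 of 60, 10 of 118 and 1 of 7 (3.33%, 8.47% and 14.3%). The Foxp3 share of 3.33% in recipient 1 had an interval of 0.406% to 11.5%, below the share of the other barcodes there (13.0%). No 3-gene barcode was in the Cxcr5 class, which allows up to 5.96%, 3.08% and 41.0%. Read the other way, 3.88%, 5.21% and 1.71% of Il17a-class barcodes were gated, against 2.14%, 3.01% and 3.36% outside the class, and 1.55%, 2.62% and 4.81% of Foxp3-class barcodes against 2.82%, 3.71% and 2.87%.

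**Figure D3:**
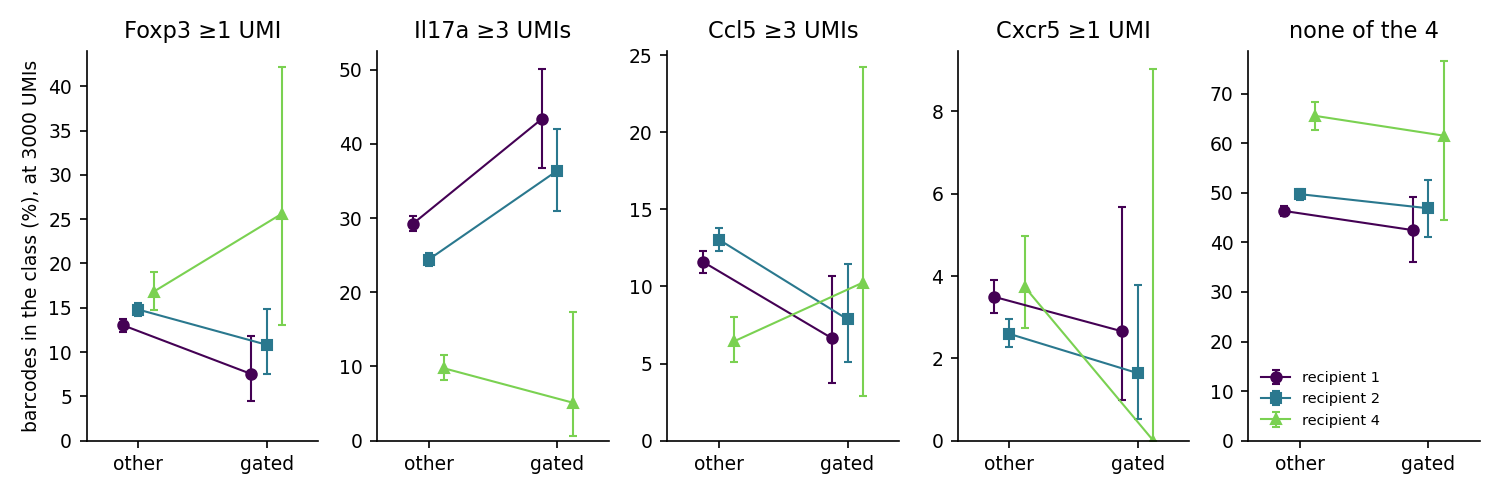
Percent of other and gated barcodes in each helper class, at 3000 UMIs per barcode; points are recipients joined by lines and bars are 95% Clopper-Pearson intervals, each panel with its own y axis from 0. The Il17a panel rises in recipients 1 and 2 and falls in recipient 4, and the Foxp3 and Ccl5 panels do the reverse.

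Gene by gene, the gated barcodes were compared with the others on UMIs summed per recipient, with edgeR's quasi-likelihood test, recipients as blocks and Benjamini-Hochberg adjustment over 10675 genes. At an adjusted p under 0.05, 2059 genes (19.3%) were higher and 1281 (12%) lower in gated barcodes. Without recipient 2, which held most gated barcodes, 959 and 402 were called. Fits for the 3-gene and the 2-gene barcodes against the same others called 1709 of 10436 genes higher (16.4%) and 2537 lower (24.3%), and 742 of 10377 higher (7.15%) and 485 lower (4.67%). The median log2 fold change of all genes was 0.00 for the gated, -0.18 for the 3-gene and -0.02 for the 2-gene barcodes, so 3-gene values are read against -0.18. The 2 fits share their comparison barcodes. In such sums, fewer cells of a type and less RNA per cell cannot be told apart. Levels below are CPM of the sums scaled by edgeR's TMM factors, for recipients 1, 2 and 4 in that order.

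The proliferation lists were high by construction, so the edgeR calls counted for them describe the gate and are not evidence about these genes. All 44 S phase genes were higher, with a median log2 fold change of 3.08 (3.61 in 3-gene and 2.11 in 2-gene barcodes). Rrm2, a subunit of the ribonucleotide reductase that makes DNA building blocks, had 187, 228 and 177 CPM in gated against 3.23, 3.94 and 2.08 in other barcodes, and the thymidine kinase gene Tk1 had 69.0, 94.0 and 64.1 against 1.29, 1.29 and 1.59. Of the 51 G2 and mitosis genes, 50 were higher (median 5.36, against 6.43 and 2.83). The cyclin gene Ccna2 had 83.4, 115 and 82.1 against 0.203, 0.277 and 0.122 CPM. The exception was Pttg1, the securin gene, at -0.45 ± 0.10 (SE); it is named because it stood apart. All 14 histone genes were higher, with a median of 3.69, but here the split was sharpest, 4.77 in 3-gene and 0.87 in 2-gene barcodes. Hist1h3c had 620.2, 545 and 413 against 2.30, 1.42 and 0.367 CPM.

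Outside these lists, the 12 genes with the largest rise were again genes of replication, mitosis or histones, and they too are a description of what the gate selects. The replication clamp partner Pclaf rose by 7.79 ± 0.11 (SE) on the log2 scale, from 1.95, 1.96 and 2.57 to 384, 521 and 436 CPM. The kinetochore subunit gene Spc24 rose by 6.33, the spindle motor gene Kif15 by 5.64, the condensin subunit genes Ncapg2 and Ncapd2 by 4.55 and 3.46, the histone chaperone gene Asf1b by 4.02, the formin gene Diaph3 by 3.57, and Dtl, an adaptor of the ubiquitin ligase that degrades licensing factors in S phase, by 3.39. The other 4 were histone genes outside the fixed list, Hist1h3e (3.60), Hist2h2ac (3.34), Hist2h2bb (3.04) and Hist1h4h (2.99). In 3-gene barcodes their log2 fold changes were 4.70, 4.39, 4.08 and 4.04. The 2-gene values were 0.43, 0.53, 0.20 and 0.26, of which Hist2h2ac passed the test (adjusted p = 0.0196, edgeR).

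Regulators of the cycle moved in both directions. Of 17 tested cyclins, kinases, inhibitors and related factors, 8 rose and 2 fell (median 0.25), against 19.3% higher and 12% lower over all genes. The phosphatase gene Cdkn3 rose by 5.97 ± 0.30 (SE), and E2f2, a transcription factor of S phase entry, by 3.31 ± 0.21 (SE). Without a gate gene Cdkn3 was near the floor, at 0.372, 0.440 and 0.157 CPM without TMM scaling, and E2f2 at 2.82, 3.01 and 3.45. Such genes move with the gate, so their rises and the count of 8 that holds them are in part a description of the gate. Cdkn2a, whose locus encodes the inhibitors p16 and p19ARF, rose by 3.18 ± 0.28 (SE), with 9.35, 18.6 and 23.1 CPM in gated against 1.37, 1.77 and 2.08 in other barcodes (adjusted p = 2.69e-08, edgeR). Its UMIs lay in 22 of 232, 44 of 308 and 3 of 40 gated barcodes, with at most 2, 3 and 6 in any 1 barcode. Cdkn2c, an inhibitor of the kinases that start the cycle, rose by 2.16 ± 0.11 (SE). Cdkn2a and Cdkn2c passed the test in 3-gene barcodes (4.07 and 2.99) and did not in 2-gene barcodes (1.27 and 0.50); the difference between the sets was not tested. Ccnd2, the D-type cyclin of early G1, fell by 0.57 (321, 302 and 428 against 477, 510.4 and 515 CPM), and Cdkn1b, which encodes the resting-state inhibitor p27, fell by 0.50. In 3-gene barcodes both were lower still, at -1.68 and -0.99.

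Genes of rest and of naive cells were lower. Of 10 quiescence factors, 6 fell and none rose, against 12% lower over all genes (median -0.34 in gated, -0.61 in 3-gene and -0.34 in 2-gene barcodes, beside 0.00, -0.18 and -0.02 for all genes). Btg1, an antiproliferative factor, had 1888, 1793 and 1444 CPM in gated against 2644, 2784 and 2203 in other barcodes (-0.58 ± 0.06 (SE), adjusted p = 1.08e-07, edgeR). Its relative Btg2 (-0.58), the thioredoxin inhibitor gene Txnip (-0.65) and Pik3ip1, whose product restrains PI3 kinase (-0.96, and -2.57 in 3-gene barcodes), fell too. Of 9 naive and central memory genes, 6 fell and none rose, beside the same background (median -0.57, -1.01 and -0.53). Il7r, the receptor for the survival factor IL-7, had 275, 341 and 318 against 499, 712 and 835 CPM (-1.06 ± 0.08 (SE), adjusted p = 2.36e-09, edgeR), and its CPM without TMM scaling was lower with each further gate gene, from 548, 727 and 897 with none to 399, 625 and 709 with 1, 348, 429 and 384 with 2 and 139, 221 and 164 with all 3. Igfbp4 (-2.26) and the transcription factor genes Lef1 (-0.81) and Bach2 (-0.66) fell as well, although Bach2 did not pass without recipient 1 (-0.63) or recipient 2 (-0.61). Bcl2, the survival gene that IL-7 signals sustain, fell by 1.19 ± 0.12 (SE), with 37.4, 61.4 and 100 against 109, 138 and 130.0 CPM, lower in 3 of 3 recipients.

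Biosynthetic genes rose together with the gate. Of 22 genes of nucleotide and one-carbon synthesis, 19 rose and none fell (median 0.73). The serine hydroxymethyltransferase gene Shmt1 rose by 2.80 ± 0.32 (SE), from low levels of 1.09, 1.13 and 1.73 CPM without TMM scaling in barcodes without a gate gene. The CTP synthase gene Ctps rose by 1.35 and Umps of pyrimidine synthesis by 1.18. Paics of purine synthesis rose by 1.10 ± 0.09 (SE), with 98.6, 129 and 138 against 51.0, 54.8 and 65.0 CPM (adjusted p = 4.38e-09, edgeR). Of 15 glycolysis genes, 9 rose and none fell (median 0.52), among them Tpi1 (1.18), Pgk1 (0.91) and Gapdh, with 1214, 1408 and 1431 against 664, 752 and 860.1 CPM (0.84 ± 0.06 (SE)). Of 19 genes of mitochondrial respiration, 18 rose (median 0.44), with Cycs, the electron carrier cytochrome c, at 0.73, and Cox5a, Ndufb8 and Ndufa4 of the respiratory complexes at 0.58, 0.58 and 0.57. Of 16 ribosome biogenesis genes, 9 rose (median 0.30), with Pa2g4 at 1.03, Nhp2 at 0.69 and Nop58 at 0.66. The background of 19.3% called higher is to be read beside these counts. Part of the rise stood in the 2-gene barcodes too, where 9 of 22 nucleotide, 6 of 15 glycolysis and 11 of 19 respiration genes rose and none fell (background 7.15%), against 17 of 22, 8 of 15 (2 fell) and 15 of 19 in 3-gene barcodes. Gapdh, for example, was at 0.63 in 2-gene and 0.92 in 3-gene barcodes.

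Genes of helper programmes mostly fell in 3-gene barcodes, while in 2-gene barcodes most did not pass the test; the difference between these sets was not tested. Over all gated barcodes, 3 Treg, 2 Th17 and 1 Th1 and cytotoxic genes rose and 6, 6 and 13 fell (background 19.3% higher and 12% lower). In the 3-gene barcodes, 14 of 21 Treg genes, 14 of 16 Th17 genes and 15 of 21 Th1 and cytotoxic genes fell (background 24.3%), with medians of -0.66, -0.59 and -0.62 against -0.18 for all genes. No Treg or Th17 gene rose, and 4 Th1 and cytotoxic genes did (Gzma, Gzmk, Ccl3 and Ccl4, named because they were the exceptions). The rise of Gzma did not stand in each recipient. Without TMM scaling it had 423, 1270 and 8.21 CPM in 3-gene barcodes, against 374, 544 and 372 in those without a gate gene. In the 2-gene barcodes, 3 of 21 Treg genes rose and 1 fell, 3 of 16 Th17 genes rose and 1 fell, and 1 of 20 Th1 and cytotoxic genes rose and 7 fell (background 7.15% higher and 4.67% lower), with medians of -0.16, 0.11 and -0.43. Il17a itself was at 0.06 ± 0.13 (SE, adjusted p = 0.783, edgeR) over all gated barcodes, with 3006, 2444 and 203 against 2469, 1952 and 431 CPM, at -0.26 in 3-gene and at 0.23 in 2-gene barcodes. It was higher in gated barcodes of recipients 1 and 2 and lower in recipient 4, and without recipient 1 or 2 the value was -0.18 or -0.21. Tmem176b, a Th17-linked channel gene, fell by 0.40 (297, 326 and 292 against 351, 475 and 389.9 CPM). It did not pass against the other barcodes nearest to the gated ones in total UMIs. Csf2, which encodes GM-CSF, fell by 2.47.

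Foxp3 fell by 0.51 ± 0.12 (SE, adjusted p = 0.00339, edgeR), with 35.8, 65.2 and 121 CPM in gated against 69.2, 86.5 and 113 in other barcodes, lower in recipients 1 and 2 and slightly higher in recipient 4. Without recipient 1 it did not pass (-0.30, adjusted p = 0.118). Nor did Foxp3 pass against the other barcodes nearest to the gated ones in total UMIs, or in 2-gene barcodes. It did not pass without barcodes with other cell markers or without the recipient block either. Ebi3, a subunit of IL-35 and IL-27, rose by 1.20 ± 0.20 (SE) (10.9, 18.3 and 23.1 against 5.11, 7.69 and 9.55 CPM). The rise of Ebi3 did not pass in 3-gene barcodes. Without TMM scaling it had 9.57, 14.5 and 0 CPM there, against 11.5, 20.3 and 33.2 in 2-gene barcodes. Barcodes without a gate gene had 4.57, 6.48 and 8.48 CPM. In recipient 4, 5 of the 9 Ebi3 UMIs of gated barcodes lay in 1 barcode. Ccl5 was at 0.34 ± 0.25 (SE, adjusted p = 0.329, edgeR), with 619, 311 and 1213 against 553, 503 and 338 CPM; it was -1.21 in 3-gene barcodes and -0.28 without recipient 4. In gated barcodes of recipient 1, 926 of 1588 Ccl5 UMIs lay in 1 barcode. Gzma, a granzyme gene, rose by 0.76 ± 0.07 (SE), with 599, 1028 and 885 against 397, 581 and 477 CPM, from 41 of 232, 76 of 308 and 5 of 40 gated barcodes. In each recipient a single gated barcode held many of its UMIs, 494 of 1537, 359 of 3533 and 201 of 345. Cxcr5 was at -0.03 ± 0.19 (SE, adjusted p = 0.923, edgeR), and at 0.21 without recipient 2. Of 12 Tfh genes, 1 rose and 2 fell (median -0.01), near or under the share over all genes.

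**Figure D4:**
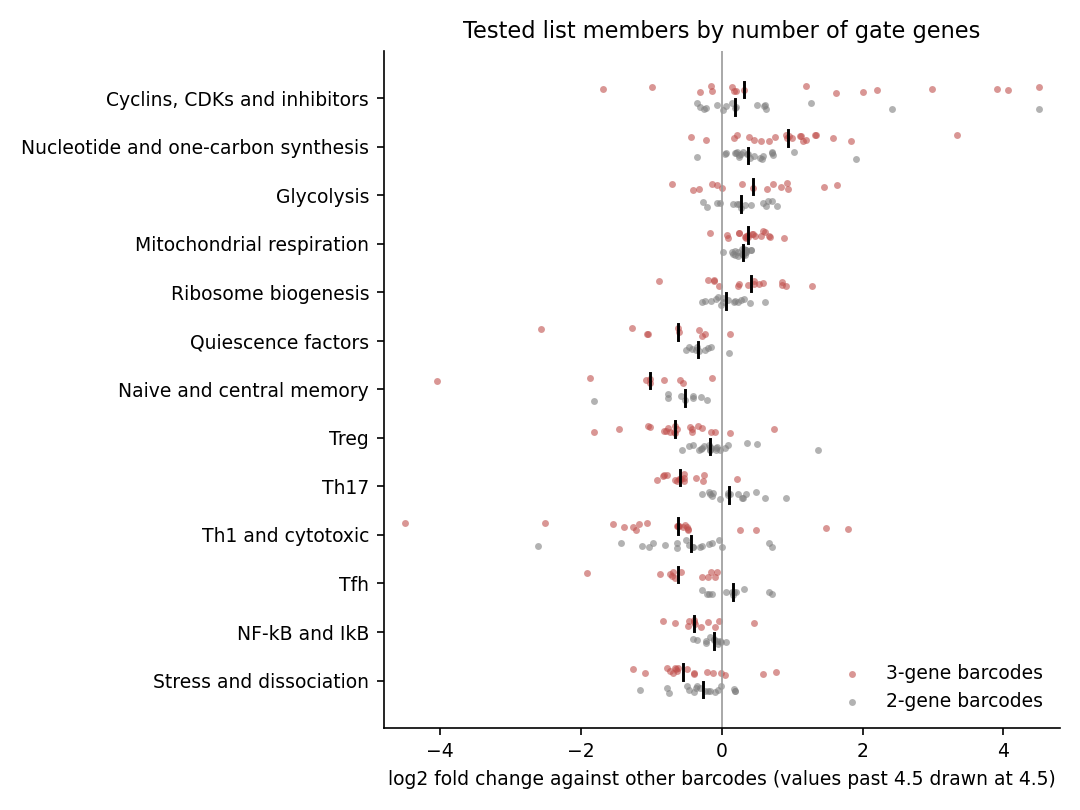
Log2 fold change against the other barcodes (x axis) of each tested member of 13 gene lists (y axis), for 3-gene and 2-gene barcodes; points are genes, black ticks are medians, and values past 4.5 are drawn at 4.5. The medians of the Treg, Th17 and Tfh lists lie at -0.66, -0.59 and -0.62 in 3-gene and at -0.16, 0.11 and 0.15 in 2-gene barcodes.

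Signalling genes were mixed, and each count here is to be read beside the 19.3% higher and 12% lower over all genes. Of 21 activation and IL-2 signalling genes, 4 rose and 10 fell (median -0.17). The transferrin receptor gene Tfrc, which takes up iron, rose by 1.01 ± 0.13 (SE) (39.0, 62.3 and 23.1 against 22.3, 26.5 and 17.3 CPM), whereas Il2 fell by 1.17 and Socs3, an inhibitor of cytokine signalling, fell by 0.59. Of 12 NF-kB and IkB genes, 1 rose and 3 fell (median -0.10), and of 20 BCL2 family and p53 target genes, 3 rose and 4 fell (median 0.04), shares not far from those over all genes. Nfkbia, which encodes the inhibitor IkB-alpha, rose by 0.31, and Tnfaip3, which encodes the inhibitor A20, fell by 0.36. Of 10 homing and residence genes, none rose and 4 fell, with the collagen-binding integrin gene Itga1 at -0.86 and the chemokine receptor gene Ccr2 at -0.35. Ccr2 did not pass against the other barcodes nearest in total UMIs. Of 18 stress and dissociation genes, 3 rose and 8 fell (median -0.26). The fallers there were immediate early genes such as Atf3 (-1.12) and Rhob (-0.80), and Hsp90aa1, a chaperone gene, rose by 0.55. Of 10 CD4 T cell identity genes, 5 fell, and Cd4 was at -0.35 ± 0.07 (SE), with 315, 327 and 287 against 410.2, 407 and 365 CPM.

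Further named genes passed edgeR's test (adjusted p under 0.05) but lost it when 1 recipient was left out. Among them are genes of cytokines (Il22, Ccl20), a growth factor (Areg), the pore protein of cytotoxic granules (Prf1), transcription factors of activated cells (Batf, Irf4, Myb, Tox), nuclear IkB proteins (Bcl3, Nfkbiz), a lactate transporter (Slc16a3) and a migration receptor (Gpr183). Without recipient 1 this held for Capg (0.28, then 0.23), Batf (0.25, then 0.16), Bcl3 (-0.31, then -0.38), Izumo1r (-0.34, then -0.28), Prf1 (-1.01, then -1.04), Phlda3 (0.98, then 0.91) and Sh2d1a (0.25, then 0.20). Without recipient 2 the same 7 genes lost it, at 0.20, 0.13, -0.44, -0.31, -0.76, 0.77 and 0.35. So did Ccl20 (0.54, then 0.28), Il22 (0.30, then 0.31), Areg (0.39, then 0.01), Irf4 (0.47, then 0.37), Myb (0.34, then 0.23), Tox (-0.31, then -0.29), Nfkbiz (-0.43, then -0.29), Sesn1 (-0.57, then -0.63), Gpr183 (-0.32, then -0.30), Slc16a3 (1.18, then 0.97), Nop56 (0.53, then 0.40) and Plac8 (-1.10, then -0.61). Without recipient 4, Il22, Myb and Sh2d1a lost it, at 0.13, 0.25 and 0.14. Ccl20 and Il22, both cytokine genes of Th17 cells, turned from 0.91 and 0.61 in 2-gene to -0.36 and -0.63 in 3-gene barcodes.

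The largest falls over all genes included transcripts of other cells. Igkc, an antibody light chain gene, had 7.79, 113 and 2.56 CPM in gated against 119.6, 993 and 5.39 in other barcodes (-3.26 ± 0.13 (SE)), and Jchain of plasma cells 0.390, 24.1 and 0 against 14.2, 170.5 and 0.979. Of the Igkc UMIs, 262 of the 389 in gated barcodes of recipient 2 lay in 1 barcode. Other genes among the largest falls were the gelatinase gene Mmp9 (-1.73), Mylip (-1.25), the death ligand gene Fasl (-1.13), Arhgap5 (-1.12), Rreb1 (-1.09) and the chromatin factor gene Phf1 (-1.08). Slfn5, of the Schlafen family tied to T cell quiescence, was at -1.21, had 14.4, 10.2 and 17.9 against 28.9, 27.4 and 37.8 CPM and reached -3.42 in 3-gene barcodes, against -0.62 in 2-gene barcodes.

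Markers of other cells stand beside these results. At least 2 UMIs of such markers were met in 73.7%, 74.7% and 50.0% of gated and 52.5%, 57.6% and 54.5% of other barcodes. These markers include genes met in many of the sorted cells. Outside the gate in recipient 1, Xbp1 was met in 40.5%, Pecam1 in 29.6% and Ighm in 22.0% of barcodes. Others were rare there, such as Cd79a (0.309%), Mzb1 (0.132%) and Col1a1 (0.121%). The 10 myeloid markers summed to 21.6, 181 and 61.1 CPM in gated and 80.5, 81.5 and 58.1 in other barcodes. In recipient 2 all but Itgax (0 against 0.403) were higher in gated barcodes. Cd74, H2-Ab1 and H2-Aa had 104, 28.6 and 26.9 there, against 53.1, 8.87 and 6.82 CPM. Of the gated H2-Aa UMIs of recipient 2, 95 of 98 lay in 1 barcode, and of those of H2-Ab1, 85 of 104. The 6 plasma cell markers summed to 92.6, 174 and 94.2 against 163, 627 and 147 CPM. Xbp1 alone made up 79.1, 84.4 and 73.8 CPM of the gated and 104, 116 and 131 CPM of the other sums. Cd8a rose by 1.57 ± 0.35 (SE) (adjusted p = 0.00165, edgeR), from 15 UMIs in 1 barcode, 8 in 2 and 16 in 2. The part of these markers in the fold changes was not tested. With barcodes of 2 or more such UMIs left out, 61, 78 and 20 gated barcodes remained, and 491 genes were higher and 128 lower. That setting also drops barcodes whose 2 UMIs are of widely met genes such as Xbp1.

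The change with the gate passed a test of difference between barcodes with and without a Foxp3 UMI in few genes. The Foxp3 UMI was read at full depth, without thinning. Gated Foxp3-positive barcodes held a median of 12012, 13188 and 7764 UMIs in recipients 1, 2 and 4. The other Foxp3-positive barcodes held 5541, 5527 and 5270. The part of depth and of background Foxp3 UMIs in the changes of the Foxp3-positive barcodes, the Treg genes among them, was not tested. Of 9864 genes, 1258 (12.8%) were higher and 650 (6.59%) lower in gated than in other Foxp3-positive barcodes (39, 74 and 10 gated), and 1772 (18%) and 986 (10%) in Foxp3-negative barcodes (193, 234 and 30 gated). Without recipient 2 these counts were 421 and 128, and 915 and 373. Without recipient 1, 832 were higher in Foxp3-positive and 964 in Foxp3-negative barcodes. The median of the S phase list was 3.06 and 3.11 and that of the G2 and mitosis list 5.24 and 5.39. Nucleotide synthesis genes rose in 11 of 22 and 19 of 22 cases, with medians of 0.73 and 0.74, and Treg genes fell in 8 of 21 and 3 of 21, with medians of -0.46 and -0.17.

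The difference between the 2 changes passed edgeR's test in 3 genes in the positive (0.0304%) and 5 in the negative direction (0.0507%), all named here because they are few. Il10, the regulatory cytokine gene, fell by 1.02 in Foxp3-positive barcodes, with 448, 490.2 and 215 CPM in gated against 1035, 1013 and 141 in other barcodes. It was at 0.35 in Foxp3-negative barcodes (difference -1.38 ± 0.26 SE, adjusted p = 0.0440). The fall stood in recipients 1 and 2, and recipient 4 went the other way. The part of the full-depth Foxp3 split in this fall was not tested. The differences of Nfkbia (-0.61), Nckap5 (-1.10), the DNA ligase gene Lig1 (-1.09) and the mitotic kinase gene Melk (-2.69) were negative as well; Lig1 is of the S phase list. Lig1 was already higher in Foxp3-positive than in Foxp3-negative barcodes outside the gate (109.6, 79.1 and 111 against 37.7, 35.7 and 45.4 CPM). The antigen presentation genes H2-Aa (7.74), H2-Ab1 (4.57) and H2-Eb1 (5.47) rested on 1 gated barcode of recipient 2, which held 95 of 97, 85 of 88 and 68 of 69 of their UMIs there; without recipient 2 they did not pass (3.18, 3.35 and 0.68). No difference of the other 5 passed without recipient 1 or 2, at -1.46 and -0.97 for Il10, -0.59 and -0.71 for Nfkbia, -1.27 and -0.75 for Nckap5, -0.98 and -1.03 for Lig1 and -2.61 and -3.26 for Melk, and Nckap5 did not without recipient 4 (-1.16).

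Donor origin was read from the antibody tags, with at least 10 tag UMIs and at least 4 times as many of one tag as of the other. Genotype and CD45 variant, with any other difference between the donor strains, came together. Their parts in a donor difference cannot be told apart, here or below. Gated barcodes were 12 of 736 CD45.1 cells (1.63%), 26 of 851 (3.06%) and 4 of 102 (3.92%) in recipients 1, 2 and 4. Among CD45.2 cells they were 216 of 8398 (2.57%), 274 of 8198 (3.34%) and 35 of 1289 (2.72%). The log2 odds ratio, CD45.2 against CD45.1, was 0.62, 0.11 and -0.69, with a mean of 0.012 ± 0.66 (SD, n = 3; exact two-sided sign-flip permutation p = 1, smallest possible p 0.25). The mean was -0.29 without recipient 1, -0.037 without recipient 2 and 0.36 without recipient 4, so no direction can be given. The 3-gene barcodes were 5 of 736, 13 of 851 and 0 of 102 CD45.1 cells and 57 of 8398, 101 of 8198 and 8 of 1289 CD45.2 cells. In recipients 1 and 2 these are shares of 0.679% and 1.53% for CD45.1 and of 0.679% and 1.23% for CD45.2.

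By class, at 3000 UMIs, the 42 gated CD45.1 barcodes held 12 of the Il17a class, 1 each of the Foxp3 and Ccl5 classes, 0 of the Cxcr5 class and 28 of none. The 515 gated CD45.2 barcodes held 194 of the Il17a class, 57 Foxp3, 38 Ccl5, 11 Cxcr5 and 231 of none. In recipient 1, 6 of 12 gated CD45.1 barcodes were of the Il17a class (50.0%, interval 21.1% to 78.9%), compared with 8.79% of the other CD45.1 barcodes, and in recipient 2 this was 5 of 26 (19.2%) against 11.1%. Among CD45.2 barcodes it was 42.4% against 31.1% and 38.4% against 25.7%. The Ccl5 class, which held 22.1% and 26.0% of the other CD45.1 barcodes of recipients 1 and 2, held 0 of 12 and 1 of 26 of the gated ones. The donor difference of these class shares was not tested.

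Bcl3, the targeted gene, went against the donor labels. Its 3' tags were higher in cells labelled Bcl3-/- (CD45.2) than in cells labelled WT (CD45.1): outside the gate at 71.8, 76.0 and 73.1 against 34.0, 22.6 and 13.7 CPM, and in gated barcodes at 57.1 and 61.9 against 19.2 and 33.4 in recipients 1 and 2. The groups did not overlap. No source used here says where the deletion lies relative to the counted 3' end, so these counts do not check the labels, and each donor direction below is that of the labelled cells.

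Within gated barcodes, 5 genes were higher in cells labelled CD45.2 (0.0469%) and 8 lower (0.075%) of 10668 tested with edgeR; all are named because they are few. The CD45.1 sums came from recipients 1 and 2, with 12 and 26 barcodes, since 4 barcodes in recipient 4 were too few for a sum. Ctse, which encodes the protease cathepsin E, was lower, with 1.24 and 0.963 CPM in CD45.2 against 44.8 and 33.4 in CD45.1 barcodes (log2 fold change -5.25 ± 0.64 SE, adjusted p = 0.00120). It was also lower outside the gate (-4.19). Gramd3 was lower by 1.80 in gated and 1.84 in other barcodes, and Malat1, a nuclear noncoding RNA, was higher by 0.50. With 1 recipient left out, the values ranged from -5.38 to -5.13 for Ctse, 0.48 to 0.55 for Malat1 and -2.44 to -1.43 for Gramd3. Leaving out recipient 1 or 2 leaves 1 gated CD45.1 sum, which is then assumed to vary like the other sets, so these values and those without 1 recipient in the next paragraph do not show that a call holds.

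The other calls between donors did not all hold. Il10 was higher by 2.56 in gated CD45.2 barcodes (186 and 302 against 38.4 and 46.8 CPM), Cpe by 2.62, St8sia4 by 1.42 and Ly6a by 0.90. Epsti1, Gm42031, Hist1h2ap and Tmsb10 were lower by 0.95, 1.35, 0.83 and 0.54. Without recipient 2 these 8 did not pass, at 2.44 for Il10, 1.95 for Cpe, 1.52 for St8sia4, 1.17 for Ly6a, -1.10 for Epsti1, -1.58 for Gm42031, -0.82 for Hist1h2ap and -0.41 for Tmsb10, and Epsti1 did not without recipient 4 (-0.94). Ccl3 (-6.60) and Ccl4 (-4.99) rested on few barcodes of recipient 2, where 41 of 51 and 101 of 235 UMIs of gated CD45.1 barcodes lay in 1 barcode each, and turned to 6.94 and 9.07 without recipient 2. Without recipient 1, 89 genes were higher and 52 lower; without recipient 2, 3 and 4.

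Ribosomal protein genes set gated CD45.1 barcodes apart from other CD45.1 barcodes. Of 10668 genes, the donor difference was higher in gated than in other barcodes for 74 (0.694%) and lower for 7 (0.0656%), and 64 of the 74 were ribosomal protein genes, a group chosen after its values were seen. Outside the gate, ribosomal protein genes made up 28.3%, 26.5% and 28.8% of UMIs in CD45.1 and 19.5%, 21.0% and 21.5% in CD45.2 barcodes. In gated barcodes they made up 20.3% and 20.2% in CD45.1 barcodes of recipients 1 and 2 and 19.0%, 20.4% and 22.9% in CD45.2 barcodes. The CD45.1 share outside the gate was thus higher than the 3 others, which lay close together. Over 82 such genes, the median donor difference was -0.59 outside and 0.02 inside the gate. Naive-like barcodes were 25.6%, 8.12% and 11.2% of other CD45.1 barcodes and 1 of 12, 1 of 26 and 0 of 4 gated ones. They were 2.29%, 1.29% and 0.638% of other CD45.2 and 1.39%, 4.01% and 0% of gated CD45.2 barcodes. Both the naive-like and the ribosomal share were lower inside the gate among CD45.1 barcodes of recipients 1 and 2. Among CD45.2 barcodes both were lower in recipient 1. In recipients 2 and 4 they moved in opposite directions, with 11 of 274 and 0 of 35 gated CD45.2 barcodes naive-like. The part of naive-like barcodes in the ribosomal share was not tested. Without recipient 4, which held no gated CD45.1 sum, no gene passed (0 and 0 calls with edgeR, with 556 and 212 at an unadjusted p under 0.05; DESeq2 was run with all recipients only and called 86 and 23). Without recipient 1 there were 115 and 30 calls, and without recipient 2 60 and 16.

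**Figure D5:**
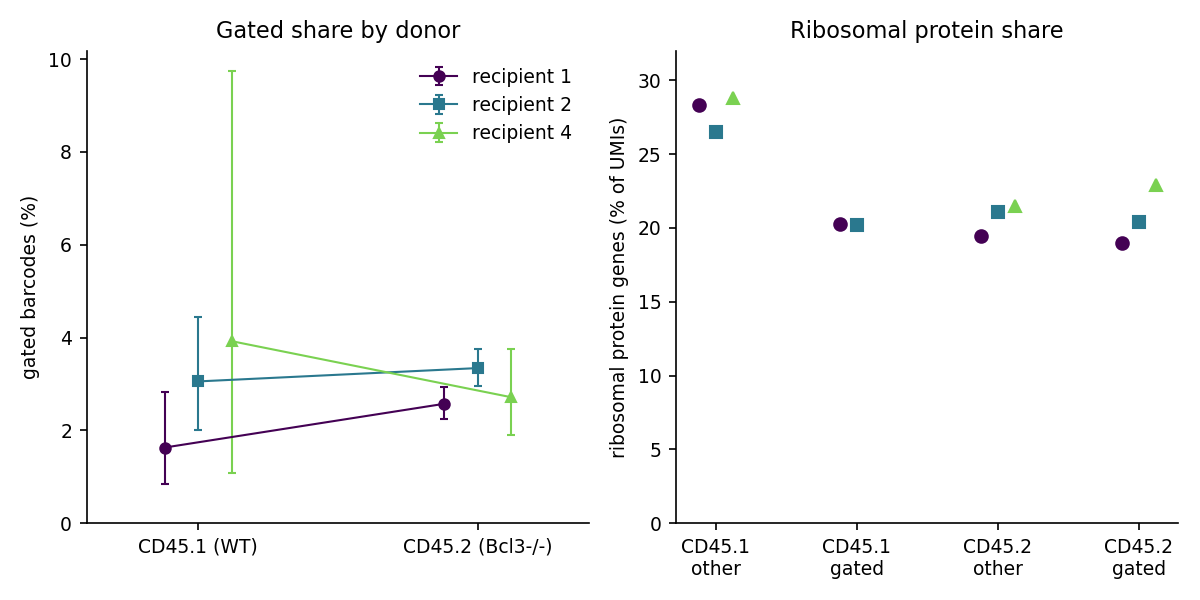
Left: percent of CD45.1 and CD45.2 barcodes that passed the gate, by recipient, with 95% Clopper-Pearson intervals and lines joining the donors of a recipient. Right: percent of UMIs from ribosomal protein genes by donor and set, 1 point per recipient. The CD45.1 barcodes outside the gate lie at 26.5% to 28.8%, the other sets at 19.0% to 22.9%.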

How the data were processed

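The deposited matrices hold raw UMI counts per gene and antibody tag, which the authors made with Cell Ranger 6.1.1 on build mm10, per the file headers and the submitters' processing notes; no source used here gives the gene annotation. Each recipient was 1 library, and the 3 recipients used are the replicates. Counts of gated and other barcodes were summed per recipient (at least 10 barcodes a sum) and tested with edgeR 4.0.16, with the recipient as a block, and with DESeq2 1.42.0 as an alternative (R 4.3.3). Gated and other barcodes of 1 recipient share an animal, and their deviations from the set means correlated at 0.336, 0.434 and 0.389 over 10675 genes. Class and donor shares were compared by exact sign-flip tests (scipy 1.17.1), the class shares after thinning each barcode to 3000 UMIs, with 10 gated barcodes of fewer UMIs left out. The sums were tested on simulated data with 200 changed genes. Doublets were not removed. The members and the gene lists were chosen with earlier results of these data known, and no gene list is independent evidence. Named genes are the gate genes and Stmn1, the 12 largest rises outside the proliferation lists and the 12 largest falls among called genes (average log2 CPM 4 or more, 1 direction in each recipient), up to 4 members of each list with the largest change, the class genes and Bcl3. Barcodes with all 3 or exactly 2 gate genes, those above the list cutoff, and the class shares without other cell markers were added after seeing the data. The 3 genes of the naive-like set were also settled after seeing the data, and 1 gene is not reported here and was left out of its list.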

Additional observations from a re-analysis of the deposited data

Results flagged for a closer look

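Recipient 3 stood apart from the other recipients in the share of kept barcodes that passed the gate, at 11.7% against 2.49%, 3.33% and 2.83%; the gap to the nearest recipient was 0.909 of the whole range, above the critical value of 0.829 for 4 values. Its other barcodes also carried Birc5 and Stmn1 UMIs widely, and the part of this in the share was not tested.

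The change with the gate differed between Foxp3-positive and Foxp3-negative barcodes, by edgeR's test of the difference, in 8 genes. The differences were 7.74 for H2-Aa, 4.57 for H2-Ab1, 5.47 for H2-Eb1, -1.38 for Il10, -1.09 for Lig1, -2.69 for Melk, -1.10 for Nckap5 and -0.61 for Nfkbia. Each of the 8 lost its call when recipient 2 was left out. The Foxp3 split was made at full depth, and the part of depth in these differences was not tested.

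The difference between donors was higher in gated than in other barcodes for 74 genes and lower for 7. Among the lower ones were Ccl3 (-5.06) and Ccl4 (-3.58), whose UMIs in gated CD45.1 barcodes came from 2 and 4 barcodes of recipient 2.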

How the results depend on the processing

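The mean gated share moved with the gate and the depth: 19.3% with at least 1 gate gene, 0.840% with all 3, 1.49% after thinning and 5.09% with recipient 3. Of the class log2 odds ratios, those without thinning turned to 0.19 (Foxp3), 0.34 (Ccl5) and 0.86 (Cxcr5); with all 3 gate genes the value for none of the markers turned to 0.52, above the list cutoff those for Il17a and none turned to -0.017 and 0.24, and without other cell markers Ccl5 turned to 0.52. Leaving out 1 recipient gave -0.67 to 0.16 for Foxp3, 0.062 to 0.86 for Il17a and -0.81 to 0.042 for Ccl5. The donor value was -0.010 without barcodes above 3 times the median, -0.014 with all 3 gate genes and -0.29 to 0.36 without 1 recipient. The cause of these moves was not tested.

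Genes called higher and lower, gated against other, were 1279 and 713 with DESeq2, 1259 and 333 with no replicate block, 1367 and 617 without barcodes above 3 times the median, 491 and 128 without other cell markers, 742 and 485 with exactly 2 gate genes, and 2537 lower with all 3. Without 1 recipient they were 959 to 2053 and 402 to 1606. With recipient 3 there were 0 and 0 by edgeR (1536 and 1269 at an unadjusted p under 0.05; DESeq2 was not run on that set). In Foxp3-positive barcodes they were 421 to 1070 and 128 to 801 without 1 recipient, with 246 lower without the block. In Foxp3-negative barcodes they were 915 to 1702 and 373 to 1091, with 1109 and 276 without the block. The difference between them gave 5 higher with DESeq2, of which 0 were among the 3 of edgeR, 0 and 0 without the block (120 and 194 at an unadjusted p under 0.05), and 1 to 6 and 1 to 8 without 1 recipient. Between donors, gated barcodes gave 21 lower with DESeq2, 1 and 1 without the block, and 3 to 89 and 4 to 52 without 1 recipient. The donor difference, gated minus other, gave 23 lower with DESeq2, 0 and 0 without the block (499 and 179 at an unadjusted p under 0.05), and 0 to 115 and 0 to 30 without 1 recipient.

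Of single genes, leaving out 1 recipient gave -0.21 to 0.28 for Il17a, -0.28 to 0.89 for Ccl5 and -0.29 to 0.21 for Cxcr5. Genes that turned: with DESeq2, Areg (-0.61) and Il17a (-0.18); with no filter on low counts, Il17a (-0.00233); against others with no gate gene, Cxcr5 (0.039); against others nearest in UMIs, Myb (-0.13); without other cell markers, Areg (-0.25), Il22 (-0.25), Cxcr5 (0.16) and Sh2d1a (-0.054); in CD45.2 cells only, Il17a (-0.12); with recipient 3, Il17a (-0.060) and Cxcr5 (0.042). With all 3 gate genes these were Capg (-0.090), Il17a (-0.26), Ccl20 (-0.36), Il22 (-0.63), Ccl5 (-1.21), Sh2d1a (-0.072) and Batf (-0.030); above the list cutoff Il17a (-0.16), Il22 (-0.30) and Ccl5 (-1.34); with exactly 2 gate genes Cxcr5 (0.20). Against others nearest in UMIs, Batf, Ccr2, Cd8a, Foxp3, Myb, Phlda3, Sh2d1a and Tmem176b lost their calls. Of the values of named genes under alternatives, 1168 kept direction and side of the threshold, 272 no longer passed, 7 newly passed and 27 turned. The number of gated barcodes, 40 in recipient 4 and 42 among CD45.1 cells, limits the precision of their shares.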
